A study of Mus musculus with 8 samples.

Results

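Acrosome and fertilization genes were examined in whole testes of mice at postnatal day 12 (P12), an age at which the first germ cells have entered meiosis and no spermatids have formed. The 33 genes were taken by symbol from a list of genes for proteins of the acrosome and of sperm-egg interaction, out of 40840 genes in the count tables. The rule that chose them used no measured value, but earlier results of these data were known when the list was made. RNAseq had been made from 4 wild type and 4 *Tra2b-cPEko* mice on a C57BL/6J background, each an independent mouse, named A to D here within each genotype. Wild type mice were *Tra2bPE fl/+*, so they carried a floxed and an unmodified copy of the *Tra2b* poison exon (PE), a short exon whose inclusion makes a non-productive *Tra2b* mRNA, and no Cre. *Tra2b-cPEko* mice were *Tra2b fl/-;Vasa-Cre*, with a floxed and a deleted PE allele and a Cre that is expressed in germ cells only. Sertoli, Leydig and myoid cells of these testes therefore still had a PE. The comparison asks whether the early transcripts of genes that sperm need for fertilization differed when germ cells lacked the *Tra2b* PE.

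The acrosome is a secretory vesicle that grows from the Golgi apparatus over the nucleus of the spermatid. It holds proteases, matrix and zona pellucida binding proteins, and its membranes are anchored to the nucleus by assembly proteins. A further group of membrane proteins, among them *Izumo1*, acts when sperm and egg bind and fuse, and ADAM family proteins with their chaperones and partners shape the sperm surface. Many of these genes are first transcribed in pachytene spermatocytes, before any acrosome is present, and some of their mRNAs are stored for later translation.

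**Figure D1:**
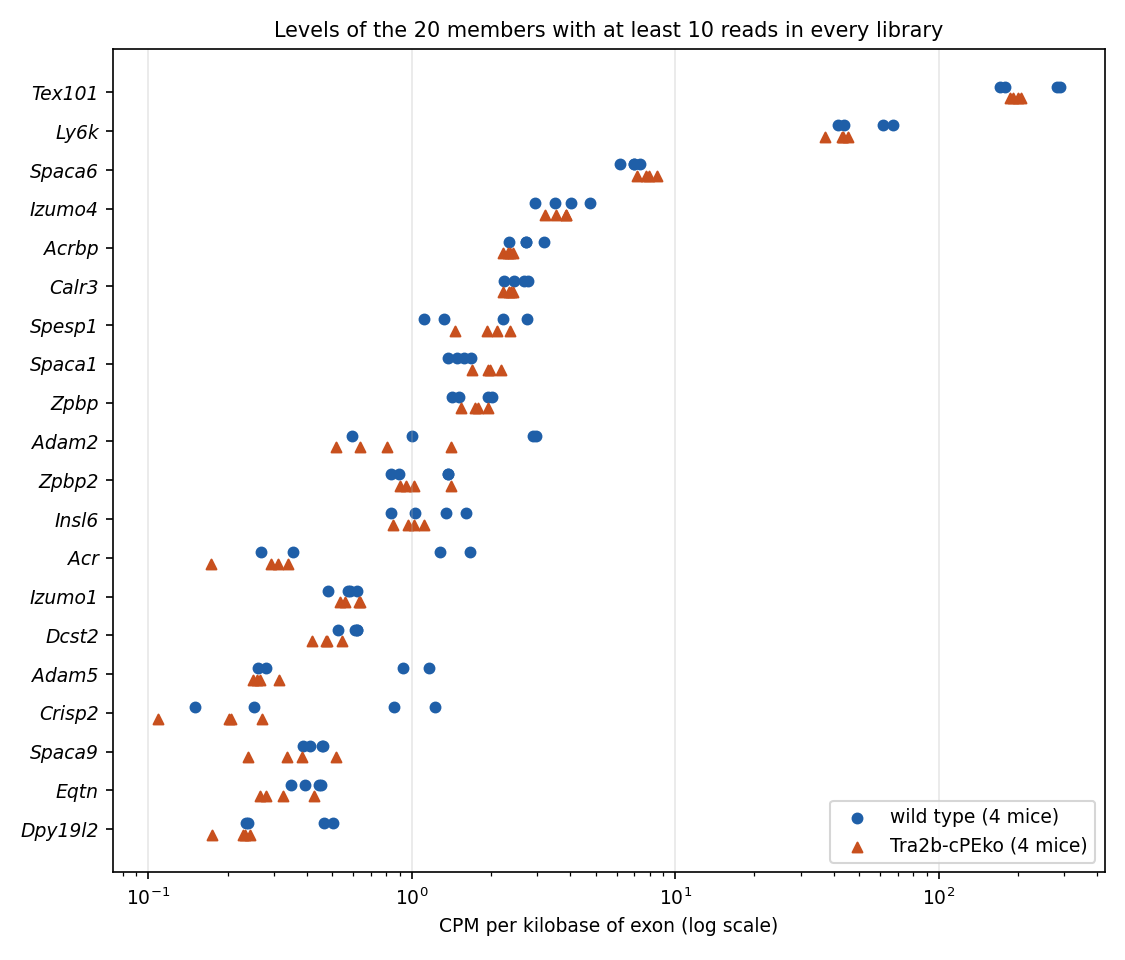
Level of each of the 20 genes with at least 10 reads in every library, as CPM (read counts scaled to a common library size) per kilobase of exon on a log scale, with wild type mice as circles and *Tra2b-cPEko* mice as triangles. *Tex101* and *Ly6k* lie to the right of all others, and the circles of *Acr*, *Adam5*, *Crisp2* and *Adam2* fall into a high and a low pair.

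Upstream sequences are shown for 6 of the genes: *Spata16* and *Spaca1*, whose genotypes did not overlap, *Crisp2*, *Dpy19l2* and *Spesp1*, whose highest wild type mouse was at least 2 times the lowest, and *Izumo1*, the only gene whose window held a cyclic AMP response element (CRE). They come from the RefSeq promoter table (250 bases before and 50 after each start), and were placed on GRCm39 by exact match. Of each window, the longest stretch outside GENCODE exons is printed, 5′ to 3′ on the gene's strand. Capitals mark the MYB family core (CAACNG on either strand) and the CRE (TGACGTCA). MYBL1 is a MYB family protein of pachytene spermatocytes, and CREM, a spermatid activator, binds CRE.
*Spata16*, chr3:26691530-26691636, plus strand: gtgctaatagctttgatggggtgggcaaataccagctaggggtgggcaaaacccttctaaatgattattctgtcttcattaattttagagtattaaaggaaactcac
*Spaca1*, chr4:34050192-34050315, minus strand: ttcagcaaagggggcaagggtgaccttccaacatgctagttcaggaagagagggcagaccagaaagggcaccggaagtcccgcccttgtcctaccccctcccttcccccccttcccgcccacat
*Crisp2*, chr17:41105038-41105287, minus strand: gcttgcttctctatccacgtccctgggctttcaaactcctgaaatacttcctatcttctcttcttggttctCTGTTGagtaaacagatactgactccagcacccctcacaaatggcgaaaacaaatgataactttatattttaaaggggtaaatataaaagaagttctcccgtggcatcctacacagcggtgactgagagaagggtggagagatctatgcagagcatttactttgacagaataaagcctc
*Dpy19l2*, chr9:24607605-24607839, minus strand: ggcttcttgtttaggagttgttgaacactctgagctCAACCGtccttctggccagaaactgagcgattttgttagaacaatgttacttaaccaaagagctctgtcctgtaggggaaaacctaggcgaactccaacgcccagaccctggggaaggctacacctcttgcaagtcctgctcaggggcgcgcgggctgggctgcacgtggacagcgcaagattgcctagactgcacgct
*Spesp1*, chr9:62189500-62189711, minus strand: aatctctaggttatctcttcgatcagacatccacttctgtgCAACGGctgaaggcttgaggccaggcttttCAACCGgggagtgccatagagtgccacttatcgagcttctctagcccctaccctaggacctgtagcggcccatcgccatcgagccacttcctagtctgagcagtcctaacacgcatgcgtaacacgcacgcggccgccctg
*Izumo1*, chr7:45270985-45271207, plus strand: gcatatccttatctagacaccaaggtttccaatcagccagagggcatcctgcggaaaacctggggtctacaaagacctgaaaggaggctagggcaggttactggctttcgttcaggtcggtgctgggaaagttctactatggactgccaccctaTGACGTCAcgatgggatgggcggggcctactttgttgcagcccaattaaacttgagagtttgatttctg

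The RefSeq table held 29 promoter windows for 24 of the 33 genes. The MYB core was found in 18 of these 29 windows, in 15 genes, and in 35% of all 32851 windows of the table. The CRE was found in 1 of the 29 windows, that of *Izumo1*, and in 1.79% of all windows. The core of the RFX motif (GTTGCC, either strand) was found in 6 of the 29 windows and in 12.5% of all windows; MYB and RFX matches share bases in some windows, among them that of *Spesp1*. In *Spaca1* both MYB cores and in *Spata16* the only MYB core lie outside the stretch printed. The window of *Spesp1* held 4 MYB cores and that of *Dpy19l2* held 2, and some of these also lie outside the stretches printed. *Spink2*, whose highest wild type mouse was also at least 2 times the lowest, is not printed. Its window that lay wholly outside exons held no MYB core, and its other windows held 1 each. These matches are letters in a window and describe no binding.

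Reads on genes numbered 41998195 to 59101569 in wild type and 36757386 to 49992767 in *Tra2b-cPEko* libraries. Levels are given as CPM, with library sizes scaled by TMM factors. *Tra2b* itself was at 158, 166, 156 and 176 CPM in wild type mice A to D and at 200, 190, 192 and 209 CPM in *Tra2b-cPEko* mice, with no overlap (log2 fold change 0.27 ± 0.05 (SE), adjusted p = 0.0552 by edgeR and 0.000195 by DESeq2), and a count per gene does not show whether the PE was included. Wild type A and B stood apart from the other 6 mice in markers of pachytene spermatocytes. The summed level of 10 such markers was 509 and 544 CPM in wild type A and B, 279 and 326 CPM in wild type C and D, and 311 to 408 CPM in *Tra2b-cPEko* mice. Wild type A and B were the highest 2 mice for 5 of the 7 that were tested, against 12.7% of all genes tested. *Piwil1*, a pachytene piRNA protein, was at 43.6 and 46.8 CPM in wild type A and B and at 9.04 to 14.4 CPM in the other 6 mice. *Ldhc*, a germ cell lactate dehydrogenase, was at 28.7 and 25.1 CPM in wild type A and B and at 3.13 to 9.86 CPM in the others. *Piwil1* and *Ldhc* are examples from the list, and no rule set beforehand named them. The summed level of 17 leptotene and zygotene markers was 1928 to 2581 CPM in wild type and 2011 to 2090 CPM in *Tra2b-cPEko* mice. Here wild type A and B were highest for 12 of the 17, against the same 12.7% of all genes. These counts were made after the values were seen and have no test. The methods of the study name small differences in exact age among 12-day-old mice as a possible source of variation in cell types. *Tra2b-cPEko* C held RNA of the epididymis: *Crisp1* was at 107 CPM there and at no more than 0.341 CPM in any other mouse, and the 9 epididymal markers summed to 148 CPM there and to 9.21 to 12.6 CPM elsewhere. Fold changes without wild type A and B are given for most genes tested, and those without *Tra2b-cPEko* C where they moved most or changed sign.

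Spermatid markers were low. Of 11 such markers, *Prm2*, *Prm3* and *Tnp2*, the genes of late spermatid chromatin packaging, had no read in any library, and *Prm1* had 1 read in all. The other 7 had 0 to 19 reads in a library. Of these, *Tnp1*, *Akap4*, *Tssk6* and *Oaz3* passed the filter on low counts, only *Tssk6* had at least 10 reads in every library, and *Tnp1*, a spermatid transition protein, was at 0.445 CPM per kb, against 0.409 for *Crisp2* and 0.367 for *Eqtn*. The summed level of the 11 was 1.32 to 1.70 CPM in wild type and 1.07 to 1.64 CPM in *Tra2b-cPEko* mice. Of the 33 acrosome and fertilization genes, 28 had a read in at least 1 library, 25 had a read in every library, and 20 had at least 10 reads in every library. There were 24 genes that passed the filter on low counts and were tested between the genotypes.

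Detection was counted by role, with no test. Of 11 genes for acrosome contents and matrix, 10 had reads and 7 had at least 10 reads everywhere. Of 5 genes for assembly of the acrosome and sperm head, all 5 had reads and 3 had at least 10 reads everywhere. Of 9 genes for sperm-egg binding and fusion, 6 had reads and 4 had at least 10 everywhere. Of 8 genes for sperm surface maturation and other secreted germ cell proteins, 7 had reads and 6 had at least 10 everywhere.

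The 5 genes with no read in any library were *Spaca7*, *Izumo2*, *Izumo3*, *Spaca4* and *Spam1*, which encodes the sperm hyaluronidase. A count of 0 allows up to 3 reads, a level of 0.0508 to 0.0817 CPM in these libraries, which covers counting error only. *Acrv1*, *Spaca3* and *Dcst1* had 0 to 3 reads in each library, and *Adam3*, a surface protein needed for sperm to pass into the oviduct and bind the zona, had 1 to 11 reads. These 4 genes did not pass the filter. *Spink2*, *Spata16*, *Pmfbp1* and *Tmem95* passed it with fewer than 10 reads in some library.

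The levels spanned more than 3 orders of magnitude per kilobase of exon. *Tex101*, a germ cell surface glycoprotein with a role in *Adam3* maturation, was highest at 213 CPM per kb over the 8 mice, followed by its partner *Ly6k* at 47.9 and the fusion gene *Spaca6* at 7.37 CPM per kb. *Tex101* alone took 67.5% to 71.8% of the reads of all 33 genes in a library, and these 3 genes together took 88.5% to 90.1%. Next came *Izumo4* at 3.71, *Acrbp* at 2.54 and *Calr3* at 2.44 CPM per kb. *Acr*, *Izumo1* and *Dcst2* lay close to each other at 0.586, 0.577 and 0.536 CPM per kb, within the spread of *Acr* (0.893 ± 0.691 CPM per kb in wild type, SD, n = 4). *Pmfbp1*, at 0.0793 CPM per kb, was the lowest gene tested. Since whole testes were used, fewer cells of a type and less RNA per cell cannot be told apart in any of these levels.

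The genes varied more among mice of the same genotype than most genes did. The median coefficient of variation was 25.9% in wild type and 12.7% in *Tra2b-cPEko* mice over the 24 genes tested, against 8.77% and 7.01% over all 19104 genes tested. Over the genes with at least 10 reads in every library the medians were 21.9% and 10.6%. The comparison with all genes was not matched for level, and low counts add spread of their own. In wild type, the highest mouse was at least 2 times the lowest for 9 of the 24 genes, against 7.73% of all genes: *Acr*, *Spesp1*, *Spink2*, *Crisp2*, *Dpy19l2*, *Spata16*, *Pmfbp1*, *Adam2* and *Adam5*. In *Tra2b-cPEko* mice this held for 5 genes, against 7.99% of all genes: *Spink2*, *Crisp2*, *Spata16*, *Spaca9* and *Adam2*. Among them, *Spata16* had 3 to 7 reads and *Spink2* 5 to 32 reads in those mice. Wild type A and B were the highest 2 of the 8 mice for 15 of the 24 genes, against 12.7% of all genes tested, a feature that was chosen after the values were seen and has no test. These are the same mice in which the pachytene markers were high, and the part of stage in the levels of the genes was not tested.

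**Figure D2:**
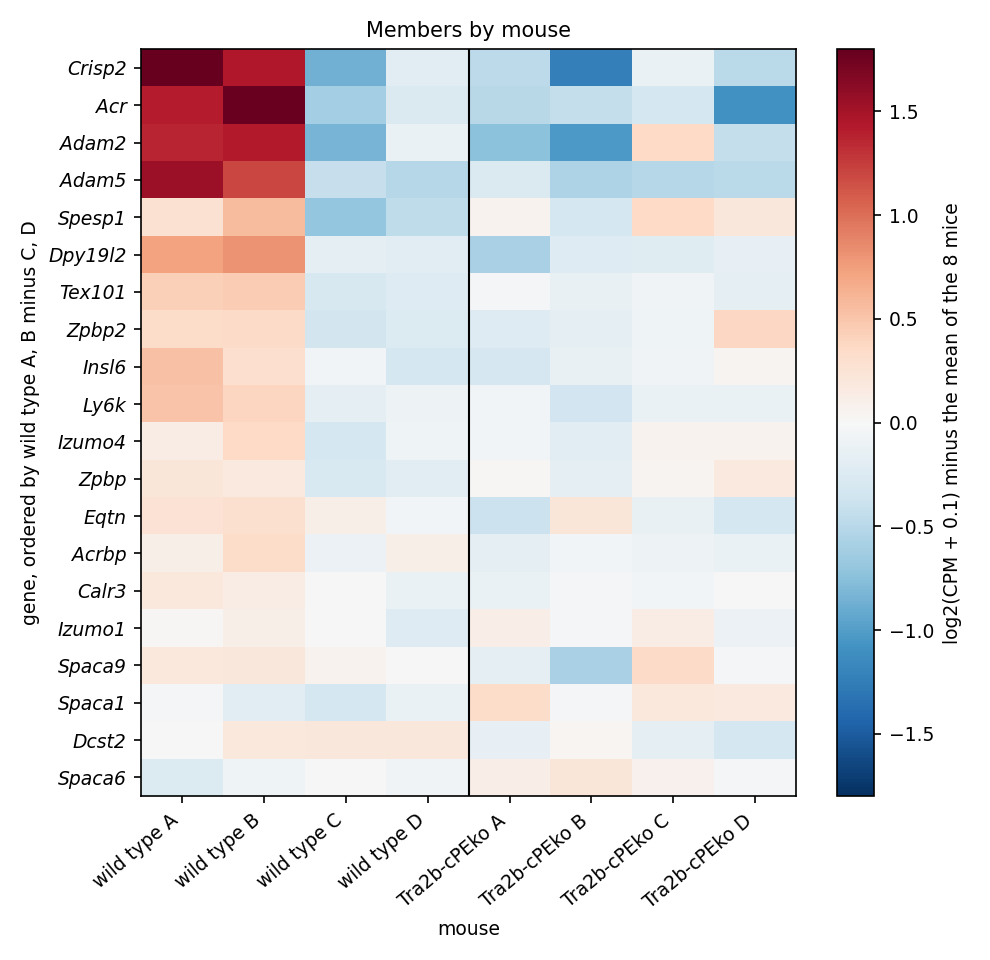
Level of 20 genes in each of the 8 mice, as log2(CPM + 0.1) minus the gene's mean over the 8 mice, with genes ordered by the difference between wild type A, B and wild type C, D. Red cells fill the upper rows of the wild type A and B columns, while wild type C and D resemble the *Tra2b-cPEko* mice there, and *Spaca1* and *Spaca6* at the bottom are higher in *Tra2b-cPEko* mice.

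Between the genotypes, no gene of the 24 passed an adjusted p of 0.05 by edgeR's quasi-likelihood test, against 0.157% of all genes tested. At an unadjusted p under 0.05 there were 8 genes, against 15.3% of all genes: 6 were lower in *Tra2b-cPEko* mice (7.07% of all genes) and 2 were higher (8.22%). DESeq2 gave an adjusted p under 0.05 to 1 gene, *Spata16*, of the 22 to which it gave an adjusted p, against 2.79% of all genes. No value of a genotype fell within the range of the other for 2 of the 24 genes, *Spata16* and *Spaca1*, a share near the 8.54% of all genes. Log2 fold changes were below 0 for 18 of the 24 genes, against 50.3% of all genes, with a median of -0.23 against -0.001. With wild type A and B left out, a comparison chosen after these mice were seen to be high, the median of the 24 genes was 0.05. The unadjusted edgeR p was then under 0.05 for 5 genes, of which 1 was lower, against 10.6% of all genes. No gene had an adjusted p under 0.05. Since the mice were chosen for their high values, leaving them out had to raise the median.

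Of the 5 genes of acrosome and sperm head assembly tested, 1 was higher and 2 were lower at an unadjusted p under 0.05, against 8.22% and 7.07% of all genes. *Spata16*, a Golgi protein of the forming acrosome that is required for a normal sperm head, lies at chr3:26691769-27037361 on the plus strand of GRCm39. It was at 0.701, 0.993, 0.252 and 0.271 CPM in wild type mice A to D and at 0.0601, 0.191, 0.128 and 0.109 CPM in *Tra2b-cPEko* mice. These values came from 31, 42, 12 and 16 reads in wild type and 3, 7, 6 and 4 reads in *Tra2b-cPEko* mice, all 4 of which lay below the lowest wild type mouse. The log2 fold change was -2.16 ± 0.54 (SE), with an adjusted p of 0.129 by edgeR and 0.0209 by DESeq2. With no overlap the two-sided exact permutation p is by construction the smallest that 4 mice against 4 allow, 0.0286, and adds nothing to that observation. Without wild type A and B the log2 fold change was -1.13, with an unadjusted edgeR p of 0.0271 and an adjusted p of 0.418. Counts this low set a limit to the size of the difference, and the gene overlaps *Gm32458* and *Gm65438* on the other strand.

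*Spaca1*, an inner acrosomal membrane protein that shapes the sperm head, lies at chr4:34024872-34050191 on the minus strand. It was at 2.69, 2.39, 2.21 and 2.54 CPM in wild type and at 3.51, 2.72, 3.16 and 3.13 CPM in *Tra2b-cPEko* mice. The lowest *Tra2b-cPEko* mouse thus lay just above the highest wild type mouse, and wild type A and B were not set apart from C and D. The log2 fold change was 0.35 ± 0.12 (SE), a value 27.6% higher, with an adjusted edgeR p of 0.221. Without wild type A and B it was 0.40, with an unadjusted edgeR p of 0.0248.

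*Dpy19l2*, which anchors the acrosome to the nuclear envelope, was at 1.72, 1.84, 0.884 and 0.864 CPM in wild type and at 0.641, 0.844, 0.855 and 0.899 CPM in *Tra2b-cPEko* mice. Only wild type A and B were above 0.9 CPM. Its log2 fold change was -0.70 ± 0.27 (SE), with an adjusted edgeR p of 0.254, and it was -0.11 without those 2 mice. *Spaca9* was at 0.576 to 0.686 CPM in wild type and at 0.354 to 0.770 CPM in *Tra2b-cPEko* mice, where *Tra2b-cPEko* C was highest. For *Spaca9* the log2 fold change was -0.20 ± 0.23 (SE), and it was -0.41 without *Tra2b-cPEko* C. *Pmfbp1*, a protein of the sperm head-tail junction, was at 0.142 to 0.421 CPM in wild type and at 0.200 to 0.354 CPM in *Tra2b-cPEko* mice, so the genotypes overlapped. Its log2 fold change was 0.05 ± 0.33 (SE), -0.20 without wild type A and B and -0.05 without *Tra2b-cPEko* C.

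**Figure D3:**
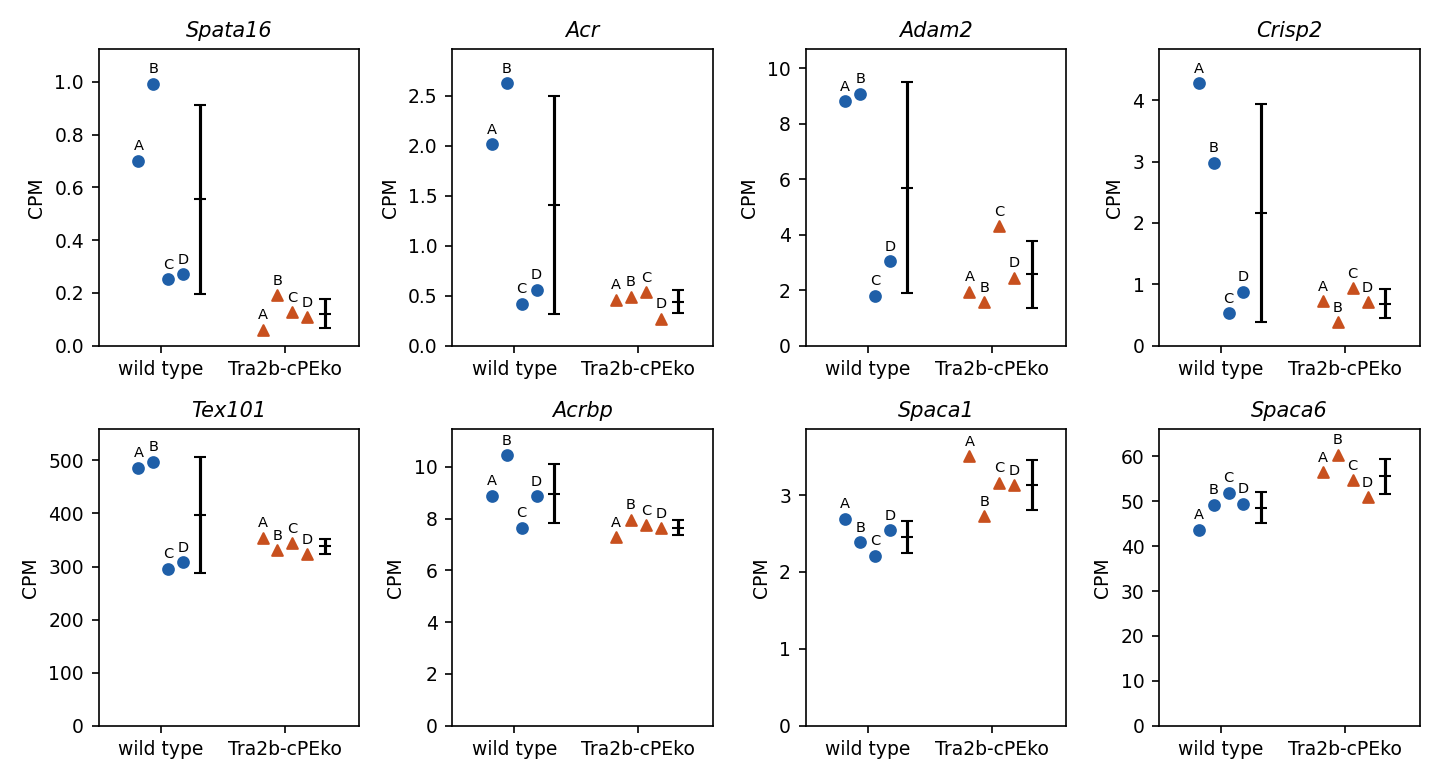
CPM of 8 genes in each mouse, with mice lettered A to D and the mean ± SD of each genotype beside them (n = 4). In *Spata16*, *Acr*, *Adam2*, *Crisp2* and *Tex101* wild type A and B sit above all other mice, whereas in *Spaca1* all 4 *Tra2b-cPEko* mice lie above the wild type mice.

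Among genes for acrosome contents, the largest differences were those of *Acr* and *Crisp2*, and both came with a wide spread in wild type. *Acr* encodes acrosin, the main acrosomal protease. It was at 2.01, 2.63, 0.421 and 0.559 CPM in wild type and at 0.461, 0.490, 0.534 and 0.272 CPM in *Tra2b-cPEko* mice. Wild type C lay within the range of the *Tra2b-cPEko* mice, and wild type D only just above it. The log2 fold change was -1.63 ± 0.64 (SE), with an adjusted p of 0.295 by edgeR, 0.0513 by DESeq2 and an exact permutation p of 0.171. Without wild type A and B it was -0.15. *Crisp2*, a cysteine-rich secretory protein of the acrosome and tail, was at 4.28, 2.98, 0.526 and 0.881 CPM in wild type and at 0.722, 0.381, 0.941 and 0.708 CPM in *Tra2b-cPEko* mice. Its log2 fold change went from -1.62 ± 0.71 (SE; adjusted p = 0.343 by edgeR) to -0.03 without wild type A and B.

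*Acrbp*, the proacrosin-binding protein, was more even among mice, at 8.89, 10.5, 7.66 and 8.88 CPM in wild type and 7.28, 7.95, 7.74 and 7.63 CPM in *Tra2b-cPEko* mice. Wild type C fell among the *Tra2b-cPEko* values. The log2 fold change was -0.23 ± 0.10 (SE), with an adjusted edgeR p of 0.296, and it was -0.11 without wild type A and B. The exons of *Acrbp* overlap those of *Gm44597* on the same strand, and reads in shared exons cannot be assigned.

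The zona pellucida binding genes and the equatorial segment genes showed no difference past the threshold. *Zpbp* was at 8.78, 8.54, 6.18 and 6.57 CPM in wild type and at 7.62, 6.73, 7.82 and 8.50 CPM in *Tra2b-cPEko* mice, and *Zpbp2* at 2.31, 2.32, 1.41 and 1.51 against 1.52, 1.61, 1.71 and 2.37 CPM. In both, wild type A and B were above C and D, and the *Tra2b-cPEko* mice fell within or close to that span. The log2 fold change of *Zpbp* was 0.03 ± 0.13 (SE) with all mice and 0.27 without wild type A and B, with an unadjusted edgeR p of 0.043 and an adjusted p of 0.46. That of *Zpbp2* was -0.06 ± 0.20 (SE) and 0.30. *Spesp1*, an equatorial segment protein, was at 6.79, 8.33, 3.41 and 4.05 CPM in wild type and at 5.87, 4.47, 7.23 and 6.46 CPM in *Tra2b-cPEko* mice. For *Spesp1* all 4 *Tra2b-cPEko* mice lay above the low wild type pair. The log2 fold change of *Spesp1* was 0.10 ± 0.29 (SE) with all mice and -0.0048 without *Tra2b-cPEko* C. Without wild type A and B it was 0.69, with an unadjusted edgeR p of 0.0031 and an adjusted p of 0.227. In *Zpbp*, *Zpbp2* and *Spesp1*, wild type A and B were the high wild type mice, so leaving them out had to raise the fold change. The p-values without these mice therefore do not test a difference between the genotypes. *Eqtn*, encoding equatorin, was at 0.905, 0.922, 0.799 and 0.712 CPM in wild type and at 0.541, 0.872, 0.663 and 0.572 CPM in *Tra2b-cPEko* mice (log2 fold change -0.34 ± 0.20, SE, and -0.19 without wild type A and B). *Spink2*, an inhibitor that keeps acrosin inactive, was at 0.169 to 1.13 CPM in wild type and 0.136 to 0.684 CPM in *Tra2b-cPEko* mice, with *Tra2b-cPEko* C highest in its genotype. Its log2 fold change was -0.62 ± 0.70 (SE), -1.26 without *Tra2b-cPEko* C and 0.70 without wild type A and B; whether the epididymal RNA in *Tra2b-cPEko* C played a part was not tested.

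Of the 5 genes of sperm-egg binding and fusion tested, 1 was higher and 1 was lower at an unadjusted p under 0.05, against 8.22% and 7.07% of all genes. *Spaca6*, a sperm membrane protein required for fusion, was at 43.7, 49.3, 51.9 and 49.5 CPM in wild type and at 56.4, 60.4, 54.7 and 50.9 CPM in *Tra2b-cPEko* mice. Here wild type A was the lowest of the 8 mice, and *Tra2b-cPEko* D lay below wild type C. The log2 fold change was 0.19 ± 0.06 (SE), with an adjusted edgeR p of 0.201 and an exact permutation p of 0.0571, and it was 0.14 without wild type A and B. *Mir99b*, *Mirlet7e* and *Mir125a* lie within *Spaca6* on the same strand, and *Gm55583* lies on the other strand. A count per gene cannot tell a transcript that carries these microRNAs from the *Spaca6* mRNA, which limits the level of *Spaca6*. *Dcst2*, another gene needed for fusion, was at 1.27, 1.47, 1.49 and 1.49 CPM in wild type and at 1.14, 1.31, 1.13 and 1.01 CPM in *Tra2b-cPEko* mice. Only *Tra2b-cPEko* B lay above the lowest wild type mouse. Its log2 fold change of -0.32 ± 0.15 (SE; adjusted p = 0.324 by edgeR) was of like size without wild type A and B, at -0.38, and it overlaps *Dcst1* and *Zbtb7b* on the other strand.

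*Izumo1*, the sperm protein that binds the egg receptor JUNO, was at 1.76, 1.87, 1.73 and 1.46 CPM in wild type and at 1.90, 1.69, 1.92 and 1.61 CPM in *Tra2b-cPEko* mice. *Izumo4*, of the same family, was at 11.4, 13.4, 8.33 and 9.88 CPM in wild type and at 10.003, 9.07, 10.9 and 10.9 CPM in *Tra2b-cPEko* mice. The genotypes overlapped in both, with log2 fold changes of 0.07 ± 0.14 and -0.07 ± 0.13 (SE), which were 0.17 and 0.16 without wild type A and B. *Izumo1* shares exons with *Rasip1* on the same strand over 55.3% of a transcript at 100% identity, and such reads cannot be assigned, which limits its level. *Tmem95*, a sperm membrane protein of fusion, was at 0.210 to 0.362 CPM in wild type and at 0.180 to 0.327 CPM in *Tra2b-cPEko* mice. For *Tmem95* the log2 fold change was -0.05 ± 0.29 (SE), and 0.28 without wild type A and B.

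**Figure D4:**
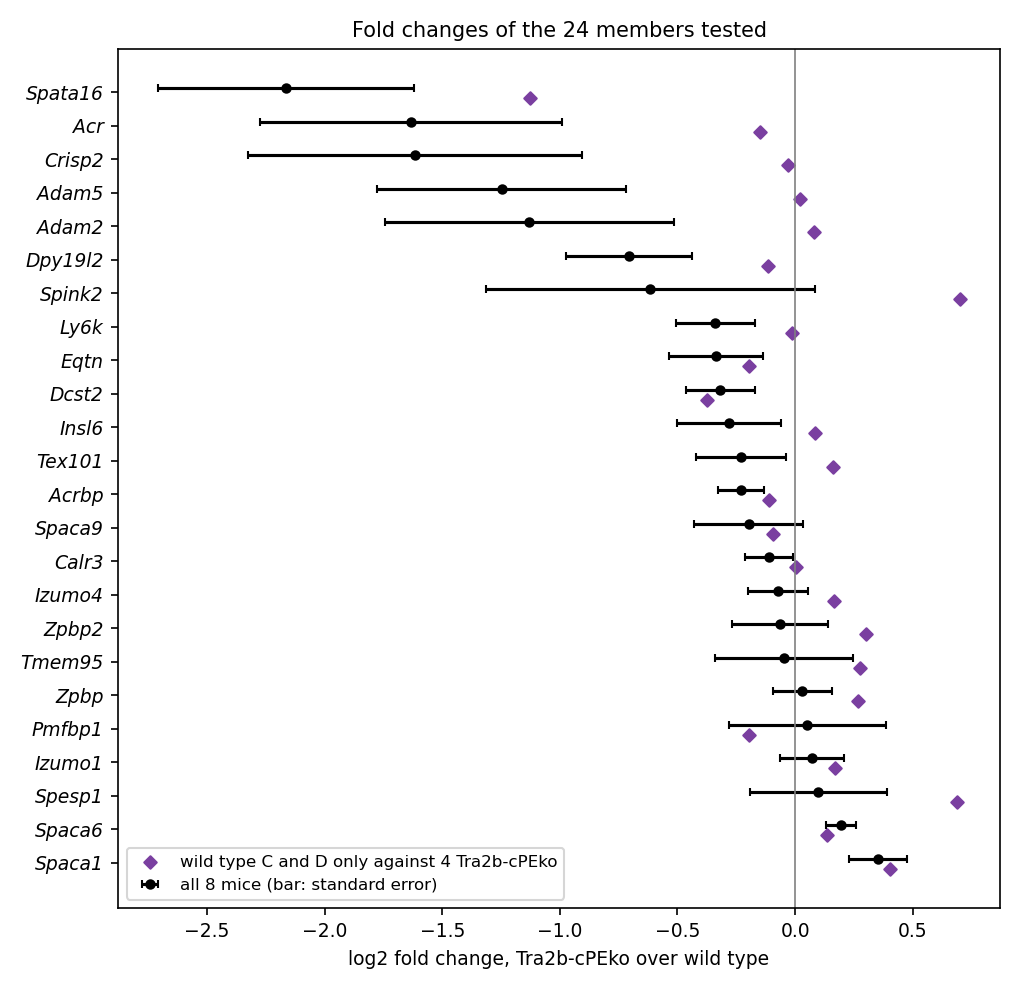
Log2 fold change of the 24 genes tested, *Tra2b-cPEko* over wild type, with all 8 mice (black circles, bars show ± the standard error) and with wild type C and D only (diamonds). Of the 6 genes that are lowest with all mice, 5 lie between -0.15 and 0.08 with wild type C and D only and *Spata16* lies at -1.13, while *Spaca1*, *Spaca6* and *Dcst2* shift by less than a standard error.

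Genes of the sperm surface repeated the split of the wild type mice. *Adam2*, the beta subunit of fertilin, was at 8.80, 9.08, 1.81 and 3.05 CPM in wild type and at 1.94, 1.58, 4.30 and 2.45 CPM in *Tra2b-cPEko* mice. Wild type C and D fell within the range of the *Tra2b-cPEko* mice. The log2 fold change of *Adam2* was -1.13 ± 0.61 (SE; adjusted p = 0.436 by edgeR), -1.51 without *Tra2b-cPEko* C and 0.08 without wild type A and B. *Adam5*, a related gene 1186 bases from *Adam3* on chromosome 8, was at 3.94, 3.12, 0.947 and 0.881 CPM in wild type and at 1.06, 0.844, 0.876 and 0.899 CPM in *Tra2b-cPEko* mice. Outside wild type A and B, the *Adam5* values lay between 0.844 and 1.06 CPM, and the log2 fold change went from -1.25 ± 0.53 (SE; adjusted p = 0.321 by edgeR) to 0.02 without those 2 mice.

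*Tex101* was at 486, 497, 296 and 309 CPM in wild type and at 354, 331, 344 and 323 CPM in *Tra2b-cPEko* mice. All 4 *Tra2b-cPEko* mice lay between the low and the high wild type pair, and *Tra2b-cPEko* mice spread far less (338 ± 13.7 CPM, SD, n = 4) than wild type mice (397 ± 109.6 CPM, SD, n = 4). The log2 fold change was -0.23 ± 0.19 (SE; adjusted p = 0.605 by edgeR) with all mice and 0.16 without wild type A and B (adjusted p = 0.299 by edgeR). *Ly6k* was at 74.0, 67.4, 45.7 and 48.3 CPM in wild type and at 49.97, 40.7, 47.8 and 47.3 CPM in *Tra2b-cPEko* mice, again with wild type A and B alone at the top. *Ly6k* had a log2 fold change of -0.34 ± 0.17 (SE; adjusted p = 0.384 by edgeR), which was -0.01 without these 2 mice.

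*Calr3*, the testis chaperone calsperin that acts on *Adam3*, was at 5.48, 5.27, 4.84 and 4.40 CPM in wild type and at 4.39, 4.71, 4.62 and 4.79 CPM in *Tra2b-cPEko* mice. *Insl6*, an insulin-like peptide of germ cells, was at 1.18, 0.993, 0.757 and 0.610 CPM in wild type and at 0.621, 0.708, 0.748 and 0.817 CPM in *Tra2b-cPEko* mice. The genotypes overlapped in both genes, with log2 fold changes of -0.11 ± 0.10 and -0.28 ± 0.22 (SE), which were 0.004 and 0.08 without wild type A and B.

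Of the other genes of the same pathway, 33 symbols were in the tables. Of the 18 that were tested, none had an adjusted p under 0.05 by edgeR or DESeq2, 1 was higher and 1 was lower at an unadjusted edgeR p under 0.05, against 8.22% and 7.07% of all genes, and the median log2 fold change was -0.05. The gene that was lower was *Smap2*, a trafficking protein needed for acrosome formation, at 68.1, 65.0, 58.0 and 62.6 CPM in wild type and 57.3, 58.3, 55.5 and 52.6 CPM in *Tra2b-cPEko* mice (log2 fold change -0.18 ± 0.06, SE; adjusted p = 0.176 by edgeR). The gene that was higher was *Adam1a*, the alpha subunit of fertilin, at 4.43, 4.21, 4.06 and 4.83 CPM in wild type and 6.27, 4.44, 5.37 and 5.01 CPM in *Tra2b-cPEko* mice (log2 fold change 0.27 ± 0.12, SE; adjusted p = 0.311 by edgeR). The genotypes overlapped in both. Per kilobase, the highest were *Ace* at 15.1, *Smap2* at 15.1 and the microtubule adaptor *Hook1* at 12.3 CPM per kb. *Ace* and *Hook1* are not particular to germ cells, and whole testes do not show which cells made the *Smap2* RNA. Wild type A and B were the highest 2 mice for 7 of these 18 genes, against 12.7% of all genes tested. *Clgn*, the chaperone calmegin that assembles ADAM heterodimers, was at 65.7 and 65.1 CPM in wild type A and B and at 25.1 to 41.4 CPM in the other 6 mice. *Dkkl1*, an acrosomal protein, was at 6.47, 7.71, 1.54 and 2.08 CPM in wild type and at 1.46, 1.09, 2.54 and 1.39 CPM in *Tra2b-cPEko* mice (log2 fold change -1.43 ± 0.60, SE; adjusted p = 0.328 by edgeR and 0.184 by DESeq2). *Cmtm2a*, which did not pass the filter, had 36, 22, 7 and 7 reads in wild type and 1, 1, 3 and 3 reads in *Tra2b-cPEko* mice, with no overlap. Among the 18 genes tested the genotypes overlapped in every gene, while 8.54% of all genes tested had no overlap. *Clgn*, *Dkkl1* and *Cmtm2a* were chosen after their values were seen.

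Markers of other testis cells were compared as lists. At an unadjusted edgeR p under 0.05, 8.22% of all genes were higher and 7.07% were lower in *Tra2b-cPEko* mice. Leydig cell markers summed to 358 to 438 CPM in wild type and 392 to 626 CPM in *Tra2b-cPEko* mice, and 1 of 6 was higher at an unadjusted p under 0.05. Macrophage markers summed to 52.2 to 60.9 CPM in wild type and 62.2 to 73.2 CPM in *Tra2b-cPEko* mice, with 2 of 5 higher. Spermatogonial markers summed to 785 to 857 and 707 to 791 CPM, with 1 of 8 lower. That 1 also had an adjusted edgeR p under 0.05, against 0.157% of all genes. Sertoli cell markers summed to 1323 to 1452 and 1206 to 1414 CPM, with 1 of 7 lower. Peritubular myoid markers summed to 802 to 911 and 848 to 1036 CPM, with 1 of 4 higher, and endothelial markers to 125 to 156 and 133 to 152 CPM, with none of 4 past that threshold. Of 17 leptotene and zygotene markers, 1 was higher and 3 were lower. By DESeq2, 1 marker each of the Leydig, macrophage, spermatogonial and leptotene and zygotene lists had an adjusted p under 0.05, against 2.79% of all genes. The part of these cell types in the differences of the acrosome and fertilization genes was not tested. The 33 genes themselves summed to 680, 693, 439 and 456 CPM in wild type and to 511, 479, 504 and 476 CPM in *Tra2b-cPEko* mice, sums that are mostly *Tex101*. Without *Tex101*, *Ly6k* and *Spaca6* the sums were 75.7, 78.7, 45.3 and 49.99 CPM in wild type and 50.6, 47.6, 57.4 and 54.5 CPM in *Tra2b-cPEko* mice, so *Tra2b-cPEko* B lay below wild type D.

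The 33 genes lie on 14 chromosomes, none on X or Y, with at most 5 on the same chromosome. Only 3 neighbour pairs lie within 100 kb of each other: *Adam3* with *Adam5*, *Dcst1* with *Dcst2*, which overlap, and *Izumo1* with *Spaca4*. The members of a pair did not share a level: *Izumo1* was read in every library while *Spaca4* had no read, and *Dcst2* had 37 to 88 reads while *Dcst1* had 0 to 3.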

How the data were processed

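The authors isolated total RNA from whole P12 testes, made stranded poly(A) libraries (TruSeq) and sequenced paired reads. For each mouse the authors deposited a table of raw counts of 40840 genes, followed by 5 summary lines that were left out of library sizes and tests; 66.4% to 69.0% of the reads in a table were on genes. The submitters' processing notes list HISAT2 2.2.1, SAMtools 1.7.1, HTSeq 2.0.2 and GRCm39, while the methods of the study name Salmon; the summary lines have the form that htseq-count writes. Whether reads were counted by strand is not given in the sources used here, and 21 of the 33 genes overlap another gene on the other strand.

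Counts were fitted in R 4.3.3 with edgeR 4.0.16 (filterByExpr with a least count of 10 and a least total of 15, TMM, robust glmQLFit, glmQLFTest) with genotype as the only term, and p-values were adjusted by Benjamini-Hochberg over 19104 genes. Differences of single genes in log2(CPM + 0.1) were also set against all 70 arrangements of the 8 mice (exact permutation test, two-sided). Alternatives were DESeq2 1.42.0, limma-voom (limma 3.58.1), RLE and upper-quartile factors, no filter, a mean count of at least 50, the replicate letter as a block, each mouse left out, and, added after seeing the data, wild type C and D only. The scripts were tested on simulated counts. Pairs of libraries of a genotype differed by 5.79 to 17.5 times counting noise, so none is a copy of another. Replicates were separate mice. Positions and exon lengths came from GENCODE vM39; BLAST+ 2.17.0 found no copy of a gene outside its own locus at 95% identity over 50% of a transcript. Values in every mouse are given for genes with at least 10 reads in every library, an unadjusted p under 0.05 or no overlap; other pathway genes are named if their unadjusted p was under 0.05 or they were among the 3 highest per kilobase. Of the other pathway genes and markers, *Fimp* and *Hils1* were not matched to a symbol of the tables and were not used. The genes and lists were chosen with earlier results of these data known.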

Additional observations from a re-analysis of the deposited data

Results flagged for a closer look

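*Dcst2* in wild type A, at 1.27 CPM from 56 reads, lay below the other 3 wild type mice, at 1.47 to 1.49 CPM from 62 to 88 reads. The gap was 0.88 of the group's range, a measure that rests on the closeness of the other values and takes no account of counting error. This was the only value so flagged among 48 groups of 4 libraries examined, of which chance alone would give about 2.4.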

How the results depend on the processing

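Of 375 values of single genes under 16 alternatives, 345 kept their direction and their side of the threshold, 1 passed it (*Spata16* by DESeq2) and 29 changed sign, in 13 genes. The count of genes with an adjusted p under 0.05 was 0, except 1 by DESeq2. The count at an unadjusted p under 0.05 was 5 with upper-quartile factors, with a mean count of at least 50, with limma-voom and with wild type C and D only, and 2 to 10 when each mouse was left out, lowest without *Tra2b-cPEko* A and highest without wild type C. The median log2 fold change turned to 0.050 with wild type C and D only. With 50 reads as the minimum in every library, 12 genes were detected in place of 20. With wild type C and D only, the sign changed for *Zpbp2* (0.30), *Spink2* (0.70), *Pmfbp1* (-0.20), *Izumo4* (0.16), *Tmem95* (0.28), *Adam2* (0.081), *Adam5* (0.020), *Tex101* (0.16), *Calr3* (0.0040) and *Insl6* (0.085). With each mouse left out, values that changed sign ranged from -0.22 to 0.050 (*Zpbp2*), -1.26 to 0.055 (*Spink2*), -0.17 to 0.13 (*Tmem95*), -0.14 to 0.31 (*Pmfbp1*), -0.18 to 0.050 (*Izumo4*), -0.054 to 0.11 (*Zpbp*), -0.082 to 0.35 (*Spesp1*) and -0.0031 to 0.12 (*Izumo1*). The cause was not tested. Same-lettered mice of the genotypes did not deviate together (correlations of -0.14 to 0.12). The labels do not say whether the letters pair mice, and so few correlations cannot exclude it. The replicate block gave 7 genes at an unadjusted p under 0.05 (15.3% of all genes), none at an adjusted p, and 67 calls in place of 30 over all genes. *Spata16* kept an unadjusted p under 0.05 in every alternative that tested it (0.0003 to 0.0271), and the minimum mean count of 50 left it out. In the alternatives that used the filter on low counts, it was admitted through wild type mice alone, so these p-values add no support. Genes with under 10 reads in some library, *Spata16* among them, are limited by depth.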
